A study of Mus musculus with 6 samples.

Results

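Homeostatic chemokines are the attractants that stromal cells make without an inflammatory trigger. With Il7, Ltbr, Madcam1 and Bst1 they are known from the stroma of lymphoid tissue, though not only from there. The genes described are Ccl19, Ccl21a, Cxcl12, Cxcl13, Cxcl14, Cxcl16, Il7, Ltbr, Madcam1 and Bst1, 10 of the 24346 genes in the tables, chosen by name. All 10 were listed, and 8 of them reached 1 FPKM in at least 3 of the 6 libraries and were tested. FPKM divides a gene's fragments by its transcript length in kilobases and by the library's mapped fragments in units of 1e6, so levels can be set side by side between genes.

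RNA was sequenced from stromal cells of the large intestine of 12-week-old mice, all given dextran sulfate sodium (DSS) at 1%, which damages the epithelium of the colon and so brings on colitis. The Pdgfra-cre group held 3 mice (numbers 13, 23 and 25) that were Il10ra flox/flox and carried cre under the control of Pdgfra, a gene of fibroblasts. The floxed group held 3 mice (numbers 8, 9 and 43) that were also Il10ra flox/flox, with no cre named in the labels. Each library came from a different mouse and from live cells sorted for Podoplanin and against CD45, CD31 and EpCAM. Il10ra encodes the chain of the interleukin-10 receptor that binds the cytokine. A cre driven by Pdgfra can act only in cells that express or once expressed Pdgfra, and Podoplanin is also carried by lymphatic endothelial cells, which the CD31 gate removes.

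In lymphoid tissue, CCL19 and CCL21 draw T cells and dendritic cells through CCR7, CXCL13 draws B cells through CXCR5, and CXCL12 acts through CXCR4. Stromal cells receive lymphotoxin from lymphoid cells through the lymphotoxin beta receptor, whose signal passes through the kinase encoded by Map3k14 to the alternative NF-kB dimer of p52 and RelB. In the gut the same genes are known from Peyer's patches, isolated lymphoid follicles and the tertiary lymphoid tissue of chronic inflammation.

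Upstream DNA is shown for Cxcl13, the gene whose groups separated, and for Cxcl12, the most abundant of the 10. Each line gives the 250 bases before the RefSeq start site (GRCm38.p6, plus strand, 5′ to 3′), from chr5:95956689-95956938 for Cxcl13 and chr6:117168285-117168534 for Cxcl12. Capitals mark the letters of 2 common promoter elements, the TATA box (TATAAA) in Cxcl13 and the GC box (GGGCGG on either strand) in Cxcl12.
Cxcl13: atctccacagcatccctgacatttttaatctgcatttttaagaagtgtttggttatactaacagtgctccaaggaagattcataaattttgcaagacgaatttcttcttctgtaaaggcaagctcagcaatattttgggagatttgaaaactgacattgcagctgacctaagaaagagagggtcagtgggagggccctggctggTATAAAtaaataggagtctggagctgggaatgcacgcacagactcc
Cxcl12: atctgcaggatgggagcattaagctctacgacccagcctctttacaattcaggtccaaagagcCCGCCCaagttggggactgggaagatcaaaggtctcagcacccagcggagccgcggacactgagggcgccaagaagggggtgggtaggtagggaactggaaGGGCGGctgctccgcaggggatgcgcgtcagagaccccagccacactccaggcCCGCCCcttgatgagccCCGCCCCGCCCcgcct

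RefSeq windows were matched for 7 of the 10 genes, and both strands of each were searched for these letters and for those of the CCAAT box. The Cxcl13 window held TATAAA 46 bases before the start site, and none of the other 6 windows held it, against 12.4% of 32851 windows of that length. GGGCGG was in the windows of Cxcl12, with 5 matches of which the last 2 overlap, and of Ltbr, against 32.7% of all windows. CCAAT was in the Ccl19 window alone, against 33.8% of all windows. The Cxcl13 window had 42% G and C and the Cxcl12 window 64.4%, the lowest of the 7 and the highest but for Ltbr (69.2%). These matches describe letters and do not show that a factor binds, and the elements were chosen after the values were seen.

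The libraries were alike in the number of genes at 1 FPKM or above, 11188 to 11358. The commonest low values put 1 fragment per kilobase of transcript at about 0.110 to 0.128 FPKM in the 6 libraries, a rough estimate sought only between 0.05 and 0.2. The 7 fibroblast markers summed to 18870 to 19235 FPKM in Pdgfra-cre and 15732 to 19044 FPKM in floxed libraries, with Dcn the largest part. Of the 7, 6 had a log2 fold change above 0, and Pdgfra went the other way. Pdgfra had 154.7, 120.5 and 173.6 FPKM in Pdgfra-cre libraries 13, 23 and 25. Floxed libraries 8, 9 and 43 had 178.2, 186.0 and 199.9 FPKM (limma adjusted p = 0.411). Its groups did not overlap, against 16.4% of all tested genes. Pdpn had 106.6 ± 18.3 FPKM in Pdgfra-cre and 92.2 ± 12.3 FPKM in floxed libraries (SD, n = 3 each). Il10ra was listed at 0 in all 3 Pdgfra-cre libraries and in floxed libraries 8 and 9, with 0.418 FPKM in floxed library 43, so its loss could not be checked. Pdgfra-cre library 23 stood apart, with a mean correlation to the others of 0.95 (the rest had 0.960 to 0.970) and the highest value of each of the 5 neutrophil markers in the tables.

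By their mean over the 6 libraries, the 10 genes ran from some of the most abundant transcripts of these cells to the limit of detection. Cxcl12 averaged 1165 FPKM and Cxcl13 506.9 FPKM, above 99.8% and 99.4% of all genes. Their ranges overlapped, at 864.6 to 1391 FPKM for Cxcl12 and 193.4 to 906.4 FPKM for Cxcl13, but Cxcl12 was the higher in 6 of 6 libraries. A middle group followed, none of whose values (at most 83.6 FPKM) reached the lowest of Cxcl13. Ccl19 averaged 45.6 FPKM, Ltbr 40.2 FPKM, Cxcl16 35.2 FPKM and Cxcl14 24.9 FPKM, and the range of each overlapped that of the next. Il7 (5.63 FPKM) and Ccl21a (1.03 FPKM) were lower, each with a range apart from its upper neighbour. Madcam1 (0.160 FPKM) and Bst1 (0.0816 FPKM) were at the limit of detection.

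**Figure D1:**
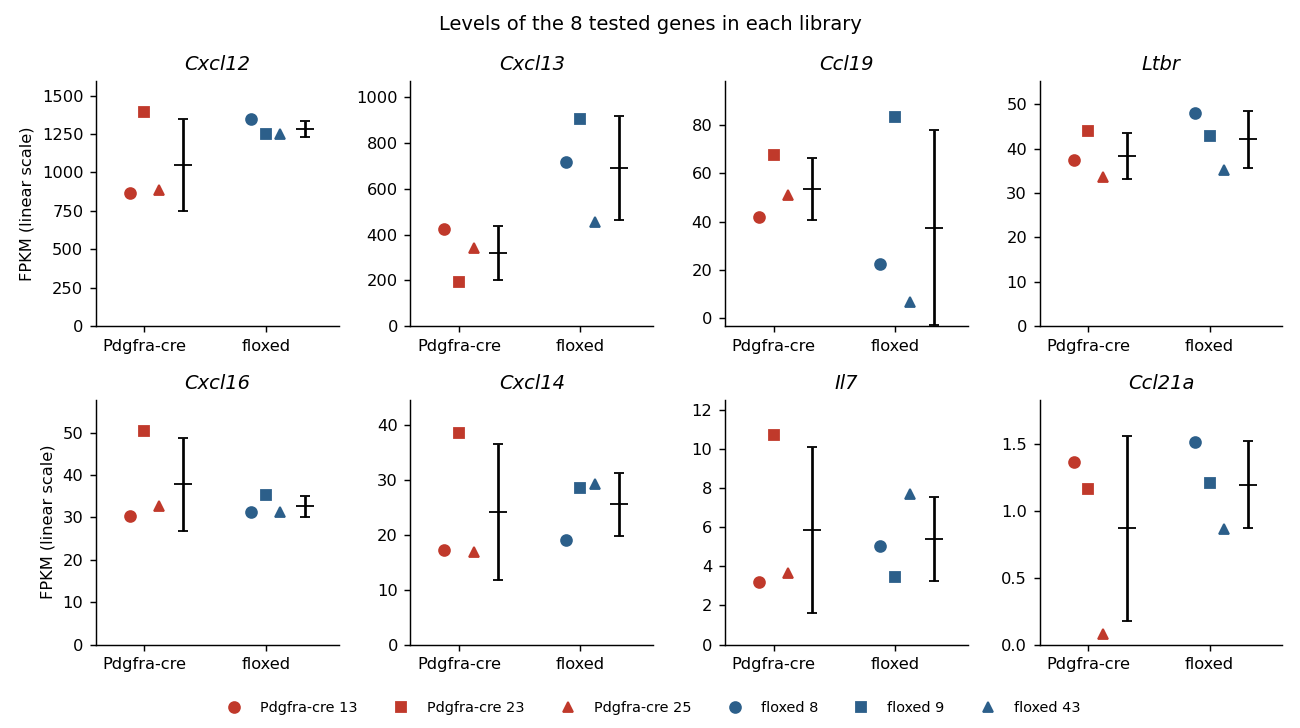
Level of each of the 8 tested genes in FPKM on a linear axis, in the 3 Pdgfra-cre libraries (red) and the 3 floxed libraries (blue), with the mean ± SD of each group in black. Cxcl13 is the only panel in which the groups do not overlap (1 of 8, against 16.4% of all tested genes), at 193.4 to 425.9 FPKM in Pdgfra-cre and 453.6 to 906.4 FPKM in floxed libraries.

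Cxcl13, the ligand of CXCR5 that guides B cells into follicles, lay lower in the Pdgfra-cre libraries than in the floxed libraries, on average at a level 0.462 times theirs. It had 425.9, 193.4 and 342.6 FPKM in Pdgfra-cre libraries 13, 23 and 25, against 719.8, 906.4 and 453.6 FPKM in floxed libraries 8, 9 and 43 (chr5:95956951-95961068, mm10, GENCODE M21). Every Pdgfra-cre library lay below every floxed library, although Pdgfra-cre library 13 and floxed library 43 were close to each other. The means were 320.6 ± 117.8 FPKM in Pdgfra-cre and 693.2 ± 227.6 FPKM in floxed libraries (SD, n = 3 each).

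The log2 fold change of Cxcl13 was -1.13 ± 0.31 (SE), with a 95% interval of -1.82 to -0.43, on the log2(FPKM + 1) scale. It did not pass the test over all genes (limma, unadjusted p = 0.00502, adjusted p = 0.231). In bulk RNA of sorted cells, fewer cells of a type and less RNA per cell cannot be told apart. Markers of smooth muscle were also at lower levels in the Pdgfra-cre libraries: 4 of 4 had a log2 fold change below 0, and their summed level was 48.8 to 140.4 FPKM in Pdgfra-cre and 211.2 to 261.9 FPKM in floxed libraries. The lowest sum was in library 23, which had the lowest Cxcl13 too. Other libraries were ordered differently: Pdgfra-cre library 25 had a higher sum than library 13 (140.4 against 126.6 FPKM) but less Cxcl13. Floxed library 8 likewise had a higher sum than floxed library 9 (261.9 against 245.6 FPKM) but less Cxcl13. Of the 4 tested pericyte markers 3 had a log2 fold change below 0 and Rgs5 was at 0.08, and the list of 5 summed to 30.0 to 36.0 FPKM in Pdgfra-cre and 38.4 to 55.6 FPKM in floxed libraries, with most of each sum from Kcnj8. The part of these cells in the Cxcl13 values was not tested.

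Cxcl12, which acts on lymphocytes and other leukocytes through CXCR4 and is scavenged by ACKR3, was even in the floxed libraries and split in the Pdgfra-cre libraries. It had 864.6, 1391 and 885.4 FPKM in Pdgfra-cre libraries 13, 23 and 25, against 1345, 1253 and 1248 FPKM in floxed libraries 8, 9 and 43 (chr6:117168535-117181367). In FPKM, the highest and the lowest value of all 6 libraries were both in the Pdgfra-cre group, with libraries 13 and 25 below all floxed libraries and library 23 above them. The means were 1047 ± 298.4 FPKM and 1282 ± 54.9 FPKM (Pdgfra-cre and floxed, SD, n = 3 each). Cxcl12 did not pass (log2 fold change -0.33 ± 0.18 SE, 95% interval -0.73 to 0.07, limma adjusted p = 0.563).

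Without Pdgfra-cre library 23, the Cxcl12 difference was -0.55 with groups that did not overlap, and its adjusted p was 0.164. Library 23 also had the highest total FPKM over all genes, 586043, against 493314 to 532522 in the other libraries. With all 6 libraries kept, quantile normalization gave -0.50 (adjusted p = 0.207) and rescaling to equal totals (TPM) gave -0.42 (adjusted p = 0.319). Under both, the Cxcl12 groups did not overlap, against 16.5% and 17.3% of all tested genes. In Pdgfra-cre library 23 the neutrophil markers summed to 179.1 FPKM, against 10.8 to 17.9 FPKM in the other Pdgfra-cre libraries and 1.03 to 11.0 FPKM in floxed libraries. Mesothelial markers summed to 46.6 FPKM there, against 9.39 and 15.0 FPKM in the other Pdgfra-cre libraries and 2.05 to 5.19 FPKM in floxed libraries. Their part in the values of library 23 was not tested.

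Together the 6 chemokines summed to 1381, 1743 and 1329 FPKM in Pdgfra-cre libraries 13, 23 and 25, against 2139, 2308 and 1770 FPKM in floxed libraries 8, 9 and 43. The groups of sums were apart by little, and Cxcl12 and Cxcl13 made up most of each sum. Cxcl13 held 30.8%, 11.1% and 25.8% of the sum in Pdgfra-cre libraries 13, 23 and 25, against 33.6%, 39.3% and 25.6% in floxed libraries 8, 9 and 43. Within a library, the ratio of Cxcl13 to Cxcl12 was 0.493, 0.139 and 0.387 in Pdgfra-cre libraries, against 0.535, 0.724 and 0.363 in floxed libraries. On this scale, which multiplying all values of a library by the same factor cannot move, the groups overlapped through floxed library 43. Sums and ratios were formed after the values were seen and carry no test.

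**Figure D2:**
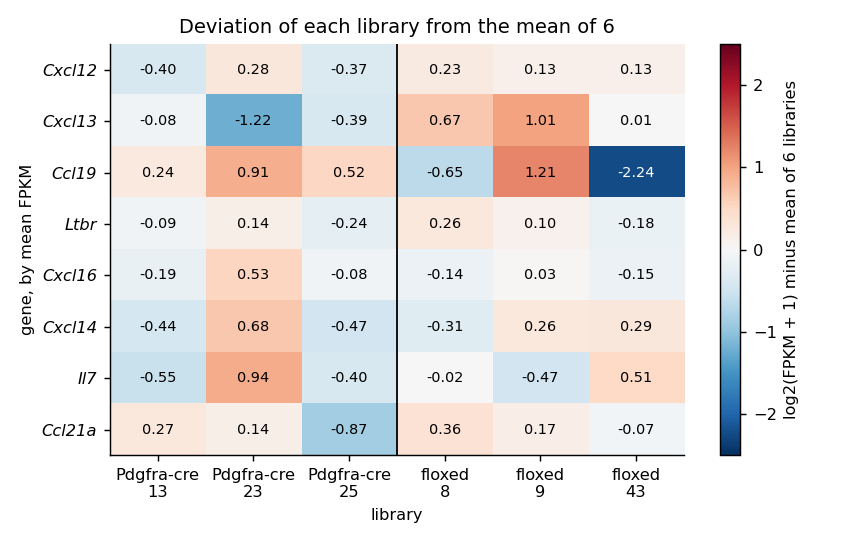
Deviation of each library from the mean of all 6, as log2(FPKM + 1), for the 8 tested genes in order of mean FPKM, with the Pdgfra-cre libraries left of the black line. Library 23 is the highest for Cxcl12, Cxcl14, Cxcl16 and Il7 and the lowest for Cxcl13 (-1.22), and floxed library 43 is the lowest for Ccl19 (-2.24).

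Ccl19, a ligand of CCR7 made by reticular cells of the T cell zone, varied widely between the floxed mice and little between the Pdgfra-cre mice. It had 42.1, 67.5 and 51.2 FPKM in Pdgfra-cre libraries 13, 23 and 25, against 22.2, 83.6 and 6.73 FPKM in floxed libraries 8, 9 and 43 (chr4:42754525-42756577). The Pdgfra-cre libraries kept within a narrow band, while the floxed libraries held both the highest and the lowest value, which differed 12.4-fold. Relative to the mean, the SD was 24% in Pdgfra-cre and 108.3% in floxed libraries.

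Ccl19 had a log2 fold change of 1.11 ± 0.68 (SE), with a 95% interval of -0.41 to 2.64 (limma adjusted p = 0.614). The estimate rested on single floxed libraries: it was 2.0 without floxed library 9 (adjusted p = 0.243) and 0.27 without floxed library 43 (adjusted p = 0.926). Without library 9 the groups did not overlap. Of 4 markers of follicular dendritic cells, Fcer2a was at 0 in all 6 libraries, Cr2 at most 0.123 FPKM and Coch at most 0.0442 FPKM. The other one, Fcgr2b, an Fc receptor that B cells and myeloid cells also carry, had 2.98, 4.47 and 3.61 FPKM in Pdgfra-cre libraries 13, 23 and 25, against 4.0, 2.46 and 0.176 FPKM in floxed libraries 8, 9 and 43. The part of cells with these markers in the values of Ccl19 or Cxcl13 was not tested.

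Ccl21a, the other CCR7 ligand, was far less abundant than Ccl19 in every library. It had 1.36, 1.17 and 0.0761 FPKM in Pdgfra-cre libraries 13, 23 and 25, against 1.52, 1.20 and 0.864 FPKM in floxed libraries 8, 9 and 43 (chr4:42772860-42773993). One library, Pdgfra-cre 25, was far below the rest, and the other 5 lay close together. By the rough depth estimate, 6.19 to 11.5 fragments stood behind those 5 values and 0.599 of a fragment behind that of library 25.

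For Ccl21a the log2 fold change was -0.30 ± 0.34 (SE), with a 95% interval of -1.08 to 0.47 (limma adjusted p = 0.824), and 0.05 without library 25. Ccl21a has near copies in the mouse genome. Of the transcripts compared, those of Ccl21b, Gm10591, Gm13304 and Gm21541 were 99.3% to 99.5% identical to it over the shorter sequence, and reads may have been divided between them. Of these, Ccl21b and Gm13304 were in the tables and listed at 0 in all 6 libraries, as was Ccl21c. Gm1987, listed as a candidate copy of Ccl21a or Ccl19, was not among the transcripts compared. It had 0.218, 1.16 and 0.0752 FPKM in Pdgfra-cre libraries 13, 23 and 25. In floxed libraries 8, 9 and 43 it had 0.210, 0.215 and 0.246 FPKM. Ccl19 and Ccl21a both overlap 4930578G10Rik, annotated on the opposite strand. Lymphatic endothelium is a known source of CCL21, and none of its 5 markers was tested. The list summed to 0.327 to 1.03 FPKM in Pdgfra-cre and 0.794 to 2.22 FPKM in floxed libraries. Prox1 had 0.187, 0 and 0.436 FPKM in Pdgfra-cre libraries 13, 23 and 25. In floxed libraries 8, 9 and 43 it had 0.798, 0.722 and 0.537 FPKM. Lyve1 was at most 0.503 FPKM in Pdgfra-cre and 1.13 FPKM in floxed libraries, and Flt4 was above 0 in 1 library. The part of these cells in the Ccl21a values was not tested.

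Cxcl14, a chemokine of skin and mucosal stroma, had 17.2, 38.6 and 16.8 FPKM in Pdgfra-cre libraries 13, 23 and 25, against 19.0, 28.5 and 29.3 FPKM in floxed libraries 8, 9 and 43 (chr13:56288643-56296551). Library 23 was again the highest and the other Pdgfra-cre libraries the lowest. Cxcl14 had a log2 fold change of -0.16 ± 0.31 (SE; 95% interval -0.85 to 0.53, limma adjusted p = 0.901). Without library 23 it was -0.54 (adjusted p = 0.458), with groups that did not overlap.

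Cxcl16, the membrane-anchored ligand of CXCR6, had 30.3, 50.5 and 32.7 FPKM in Pdgfra-cre libraries 13, 23 and 25, against 31.2, 35.3 and 31.2 FPKM in floxed libraries 8, 9 and 43 (chr11:70453983-70459984). Outside library 23 the values were close to each other in both groups. Its log2 fold change was 0.18 ± 0.19 (SE; 95% interval -0.25 to 0.60, limma adjusted p = 0.815), and -0.05 without library 23. Zmynd15, which overlaps Cxcl16 on the opposite strand, was at 2.1 to 6.01 FPKM in Pdgfra-cre and 2.73 to 3.70 FPKM in floxed libraries, and the library method does not keep the strand.

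Il7, the survival factor of T cells and innate lymphoid cells, had 3.20, 10.7 and 3.64 FPKM in Pdgfra-cre libraries 13, 23 and 25, against 5.07, 3.43 and 7.72 FPKM in floxed libraries 8, 9 and 43 (chr3:7569994-7613760). The groups were interleaved, with library 23 the highest. Il7 overlaps Gm16685 on the opposite strand. The log2 fold change was -0.01 ± 0.41 (SE; 95% interval -0.93 to 0.90, limma adjusted p = 0.996). Without library 23 it was -0.48, and it was above 0 without Pdgfra-cre library 13 (0.26), without Pdgfra-cre library 25 (0.19) and without floxed library 43 (0.24).

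Ltbr, the receptor through which lymphotoxin acts on stroma, varied the least of the 8 tested genes between libraries. It had 37.4, 44.0 and 33.6 FPKM in Pdgfra-cre libraries 13, 23 and 25, against 48.0, 42.9 and 35.2 FPKM in floxed libraries 8, 9 and 43 (chr6:125306571-125313885). Its highest library was 1.43 times its lowest, and the groups overlapped. The log2 fold change was -0.13 ± 0.16 (SE), and the 95% interval of -0.48 to 0.23 bounds the size of any difference (limma adjusted p = 0.843).

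Madcam1, an addressin of gut venules and of some lymphoid stroma, was listed at 0, 0.255 and 0.414 FPKM in Pdgfra-cre libraries 13, 23 and 25, against 0, 0.291 and 0 FPKM in floxed libraries 8, 9 and 43 (chr10:79664559-79668537). Bst1, an ectoenzyme of lymphoid stroma and myeloid cells, was at 0.247 and 0.242 FPKM in Pdgfra-cre libraries 13 and 23 and listed at 0 in Pdgfra-cre library 25 and all floxed libraries (chr5:43818885-43843986). No library held more than about 6.17 fragments of either gene, and 3 fragments correspond to about 0.231 to 0.267 FPKM of Madcam1 and 0.116 to 0.134 FPKM of Bst1. Exact two-sided permutation tests gave p = 0.7 for Madcam1 and p = 0.4 for Bst1, where 0.1 is the lowest such p for 3 against 3 libraries. A difference in these genes was not detectable at this depth. Bst1 also overlaps Fbxl5 on the opposite strand, which had 37.7 to 49.96 FPKM in Pdgfra-cre and 38.1 to 40.6 FPKM in floxed libraries, so reads of the one could be counted for the other. The 6 markers of blood endothelium summed to 4.11 to 5.93 FPKM in Pdgfra-cre and 4.24 to 5.11 FPKM in floxed libraries, with Cdh5 at 0 in all 6, most of each sum from Plvap (2.11 to 4.96 and 3.33 to 3.93 FPKM) and the other 4 below 1 FPKM. Of the 4 markers of high endothelial venules, Glycam1 was at 0 in all 6 libraries, and the sum was 1.34 to 4.89 FPKM in Pdgfra-cre and 0 to 0.841 FPKM in floxed libraries.

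**Figure D3:**
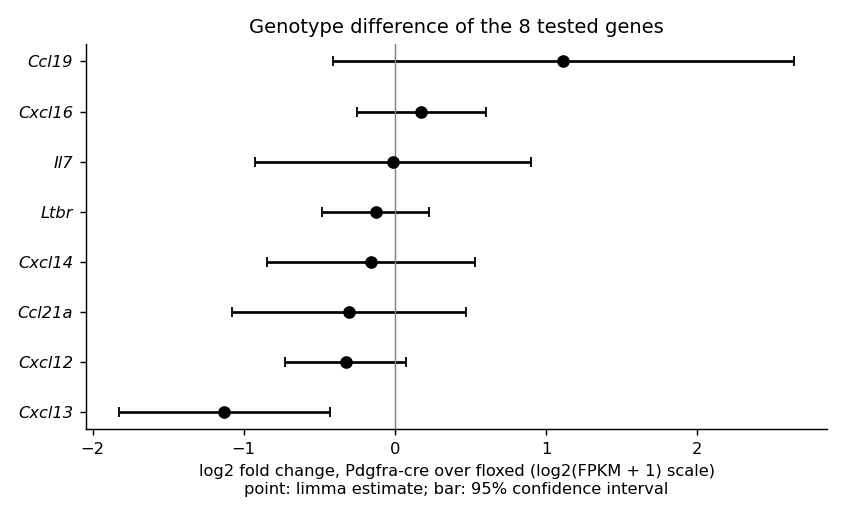
Log2 fold change of the 8 tested genes, Pdgfra-cre over floxed, on the log2(FPKM + 1) scale, with 95% confidence intervals from limma. The interval of Cxcl13 alone lies on one side of 0 (-1.82 to -0.43), and none of the 8 passed an adjusted p of 0.05.

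Over all 11429 tested genes, 0 passed an adjusted p of 0.05 (0% of those tested), and 1253 had an unadjusted p under 0.05 by limma. Of the 8 tested genes described here, 1 (Cxcl13) had an unadjusted p under 0.05, against 11.0% of all tested genes (5.49% counted in the lower direction and 5.47% in the higher). Groups without overlap were likewise found in 1 of the 8, against 16.4% of all tested genes (8.29% in the lower direction and 8.07% in the higher). One in 8 is near those shares, so the set as a whole did not stand out by count. The log2 fold change was below 0 in 6 of the 8 and above 0 in 2, with a median of -0.14, against 49.7% below and 50.3% above 0 and a median of 0.0012 over all tested genes. Without Pdgfra-cre library 23 the median of the 8 was -0.47 and 3 of them (Cxcl12, Cxcl13 and Cxcl14) had an unadjusted p under 0.05, against 9.23% of all tested genes in that fit, and had groups without overlap, against 25.2%. Without floxed library 9 these counts were 2 (Ccl19 and Cxcl13), against 10.7% and 28.5% of all tested genes. The count over all genes past an adjusted p of 0.05 was 33 without Pdgfra-cre library 25, 3 without Pdgfra-cre library 13 and 2 without floxed library 43, with none of the 8 among them.

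The signalling receptors of these ligands were close to absent in the sorted cells, while their scavenger receptors were abundant. Cxcr4, the receptor of CXCL12, was listed at 0 in 5 libraries and at 0.0626 FPKM in Pdgfra-cre library 25. Cxcr5 was at most 0.0438 FPKM and Ccr7 at most 0.683 FPKM. Cxcr6 and Il7r were highest in Pdgfra-cre library 23, at 2.08 and 1.14 FPKM, and at most 0.310 and 0.0348 FPKM in the others. The sort was against CD45, and the 4 leukocyte markers summed to 0.879 to 6.51 FPKM in Pdgfra-cre and 1.06 to 2.58 FPKM in floxed libraries, each of the 4 highest in library 23. Their part in the receptor values was not tested. Among the other receptor genes, Il2rg (at most 1.37 FPKM), Itga4 and Itgb7 (both below 1 FPKM in all libraries) were also below the filter.

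Ackr3, which takes up CXCL12 without classical signalling, had 328.2, 287.1 and 271.2 FPKM in Pdgfra-cre libraries 13, 23 and 25, against 254.7, 262.6 and 261.0 FPKM in floxed libraries 8, 9 and 43. Every Pdgfra-cre library lay above every floxed library, by a small margin in library 25, as was so for 8.07% of all tested genes. Ackr3 did not pass, at a log2 fold change of 0.18 ± 0.11 (SE, limma adjusted p = 0.607). Ackr4, which takes up CCL19, CCL21 and CCL25, had 242.7, 129.0 and 362.6 FPKM in Pdgfra-cre libraries, against 158.8, 178.7 and 212.9 FPKM in floxed libraries. Its Pdgfra-cre libraries surrounded the floxed ones (log2 fold change 0.30 ± 0.31 SE, adjusted p = 0.801).

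Of a list of enzymes and scavengers of chemokines, 9 of 10 were tested, 4 with a log2 fold change above 0 and 5 below, and 0 passed. Ackr2, a scavenger of inflammatory CC chemokines, averaged 7.13 ± 2.95 FPKM in Pdgfra-cre and 3.47 ± 0.706 FPKM in floxed libraries (SD, n = 3 each; adjusted p = 0.315). Ackr1, known from venules and red cells, averaged 8.62 ± 0.891 and 5.70 ± 0.620 FPKM (Pdgfra-cre and floxed, adjusted p = 0.331). For both, every Pdgfra-cre library lay above every floxed library. Of the 9, 3 separated in the higher direction and 1 in the lower, against 8.07% and 8.29% of all tested genes. An unadjusted p under 0.05 by limma was found in 2, both higher in Pdgfra-cre, against 11.0% of all tested genes. The matrix metalloproteinases Mmp2 (762.9 ± 144.4 FPKM in Pdgfra-cre, 956.0 ± 85.5 FPKM in floxed, adjusted p = 0.469) and Mmp14 (305.5 ± 23.7 and 358.1 ± 24.6 FPKM, adjusted p = 0.502), which can cleave CXCL12, were the most abundant of this list, and the Mmp14 groups did not overlap.

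The lymphotoxin beta receptor axis had 10 of 15 genes tested, 4 above 0 and 6 below, a median log2 fold change of -0.08, and 0 that passed. Of the ligands, Lta was listed at 0 in all 6 libraries, Ltb reached 1.16 FPKM in Pdgfra-cre library 23 and at most 0.662 FPKM in the others, and Tnfsf14 had 1.20 and 1.18 FPKM in Pdgfra-cre libraries 13 and 23, 0 FPKM in Pdgfra-cre library 25, and at most 0.317 FPKM in floxed libraries. Nfkb2, which encodes the precursor of p52, had 23.5, 27.7 and 18.7 FPKM in Pdgfra-cre libraries 13, 23 and 25, against 13.8, 21.4 and 14.5 FPKM in floxed libraries 8, 9 and 43. The groups overlapped, and its log2 fold change was 0.48 ± 0.21 (SE, adjusted p = 0.441).

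Traf3, whose protein holds the alternative pathway in check, averaged 3.74 ± 0.551 FPKM in Pdgfra-cre and 5.47 ± 1.19 FPKM in floxed libraries, without overlap (SD, n = 3 each; adjusted p = 0.530). Of the 10 tested genes of the list, 1 had groups without overlap, against 16.4% of all tested genes. Birc3, an ubiquitin ligase of the same complex, averaged 67.4 ± 9.70 FPKM in Pdgfra-cre and 55.2 ± 6.90 FPKM in floxed libraries (adjusted p = 0.552). Tnfrsf1a, the TNF receptor of stroma, was the most abundant of the list at 130.7 ± 11.1 and 138.0 ± 16.3 FPKM (Pdgfra-cre and floxed, adjusted p = 0.892). Relb, the partner of p52, had a log2 fold change of 0.10 ± 0.21 (SE, adjusted p = 0.910), and Map3k14 of -0.23 ± 0.35 (adjusted p = 0.870). Relb, Map3k14, Lta, Ltb and Tnfsf14 were named for their place in the pathway after their values were seen.

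Of 30 other genes of lymphoid stroma, 27 were tested, 14 above 0 and 13 below, with a median of 0.01, and 0 passed. An unadjusted p under 0.05 was found in 8 of the 27, 4 in each direction, against 11.0% of all tested genes. Cd34, a surface marker of adventitial fibroblasts, had 566.4, 586.5 and 598.7 FPKM in Pdgfra-cre libraries 13, 23 and 25, against 355.5, 342.2 and 331.4 FPKM in floxed libraries 8, 9 and 43. The libraries of each group were close together and the groups far apart (log2 fold change 0.77 ± 0.10 SE, adjusted p = 0.107).

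Ch25h, which makes the precursor of an oxysterol that positions B cells and dendritic cells, had 10.3, 13.7 and 14.3 FPKM in Pdgfra-cre libraries 13, 23 and 25, against 29.9, 20.8 and 22.1 FPKM in floxed libraries 8, 9 and 43. Every Pdgfra-cre library lay below every floxed library, as for Cxcl13 (log2 fold change -0.87 ± 0.19 SE, adjusted p = 0.169). Col14a1, a collagen of reticular and adventitial fibroblasts, averaged 226.1 ± 19.4 FPKM in Pdgfra-cre and 169.2 ± 7.12 FPKM in floxed libraries (adjusted p = 0.210). Icam1, an adhesion molecule for leukocytes, averaged 452.0 ± 90.1 and 329.2 ± 35.5 FPKM (Pdgfra-cre and floxed, adjusted p = 0.312). Groups without overlap were found in 7 of the 27 genes, against 16.4% of all tested genes.

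Of 21 names listed as other homeostatic chemokines and candidate copies of Ccl21a or Ccl19, 16 were in the tables and 4 were tested, 3 above 0 and 1 below, and 0 passed. Ccl25, the CCR9 ligand of the small intestine and thymus, had 2.69, 6.23 and 2.67 FPKM in Pdgfra-cre libraries 13, 23 and 25, against 0.965, 0.967 and 1.61 FPKM in floxed libraries 8, 9 and 43. Every Pdgfra-cre library was above every floxed one at these low levels (log2 fold change 1.09 ± 0.32 SE, adjusted p = 0.243). Groups without overlap were found in 1 of the 4 tested genes, against 16.4% of all tested genes. Ccl27a averaged 7.62 ± 3.43 FPKM in Pdgfra-cre and 9.83 ± 1.04 FPKM in floxed libraries (adjusted p = 0.664), and Cx3cl1 10.4 ± 5.39 and 6.95 ± 2.17 FPKM (adjusted p = 0.698). The fourth tested gene, Gm3893, was listed as a candidate copy. Its transcript was 51.1% identical to that of Ccl21a, near the shares of Ccl19 (51.9%), Ccl27a (51.6%) and Ccl27b (52%). It was not compared with the transcript of Ccl19.

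**Figure D4:**
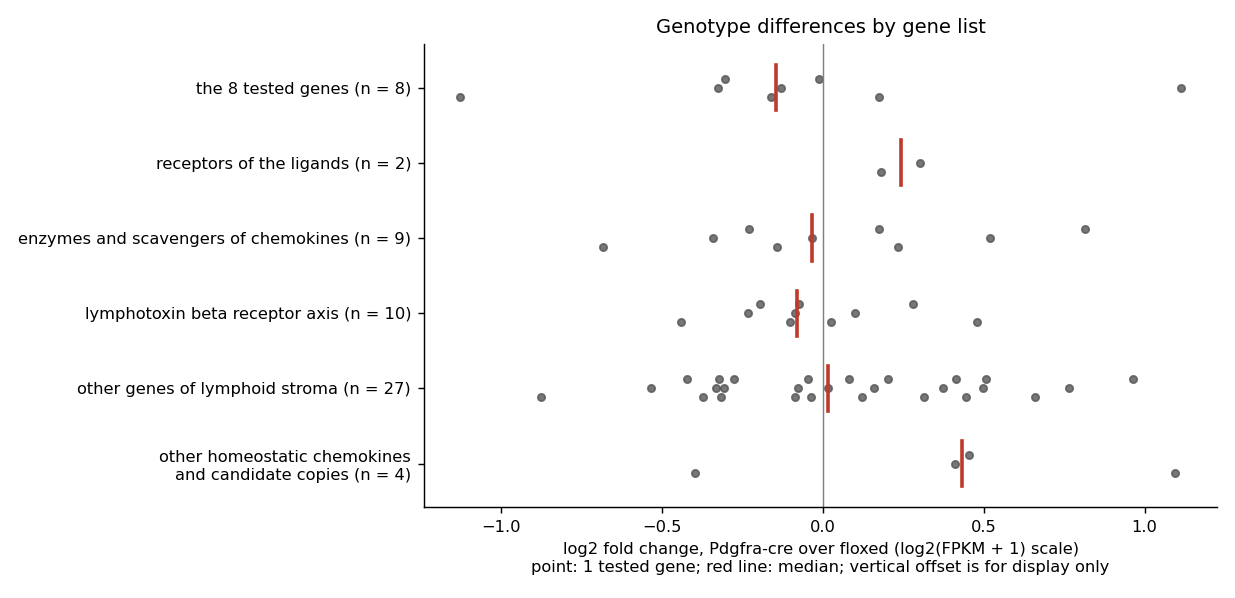
Log2 fold change, Pdgfra-cre over floxed, of each tested gene of the 6 lists, on the log2(FPKM + 1) scale, with the median of each list in red. The median was -0.14 for the 8 tested genes, -0.08 for the lymphotoxin beta receptor axis and 0.01 for other genes of lymphoid stroma, and no gene shown passed an adjusted p of 0.05.

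Across the 6 libraries, the genes whose pattern was most like that of Cxcl13 were Prkacb, Ctc1 and Por, with Pearson's r of 0.992, 0.987 and 0.983 and Spearman's rho of 1 for each, among 7879 genes with a mean of at least 5 FPKM. Por, for example, had 94.9, 76.0 and 89.8 FPKM in Pdgfra-cre libraries 13, 23 and 25, against 101.5, 113.1 and 96.4 FPKM in floxed libraries 8, 9 and 43. The genes most like Cxcl12 were Rcbtb1, Cnbp and Mrpl45, with r of 0.995, 0.981 and 0.978 and rho of 0.943, 0.714 and 0.600. With 6 points that share libraries, and so many genes searched, these values only describe likeness.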

How the data were processed

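RNA of sorted colonic stromal cells was measured in 6 libraries, 3 per genotype. The authors deposited gene-level FPKM, with 1 table for each library. Total RNA was turned into full-length cDNA and libraries were made by tagmentation, per the labels' protocols, a route that keeps no strand. Per the submitters' processing notes, the tools were TopHat2 2.1.1, Bowtie2 2.2.8, SAMtools 0.1.18 and Cuffdiff 2.2.1, with mm10. Annotation, options and read totals are not given in the sources used here, so depth was estimated only roughly from low values, and such figures cover counting error only.

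Genes that reached 1 FPKM in 3 or more libraries (11429 of 24346) were tested on log2(FPKM + 1) with limma 3.58.1 in R 4.3.3, using a variance trend, Benjamini-Hochberg adjustment over all tested genes and a threshold of 0.05. Every adjusted p is from limma. Fold changes on this scale understate differences of low genes. Madcam1 and Bst1, which were below the filter, were compared with an exact permutation test. Other genes below the filter were described without a test. The procedure was tested on simulated data. Values after ± are SD, or SE where marked.

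The genes and lists were chosen with earlier results of these data known. Named genes were the 10, the listed receptors (1 is not reported here), and from each other list the 3 tested genes with the lowest unadjusted p and the 2 with the highest mean, besides 5 genes of the lymphotoxin axis added after their values were seen. Locations are from GENCODE M21 (mm10), which holds 23310 of the 24346 names. Alternatives were 2 other pseudocounts, 2 other filters, 3 other scalings, no trend, a robust prior, array weights and leaving out each library.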

Additional observations from a re-analysis of the deposited data

How the results depend on the processing

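The direction of Cxcl13, Cxcl12, Ccl19 and Ltbr was the same under all 16 alternatives, and no tested gene of the 10 passed an adjusted p of 0.05 under any. Of these, the 2 other filters, the fit without a trend and the robust prior leave a fold change unchanged. Cxcl13 ran from -1.40 to -0.80 (log2) when 1 library was left out and from -1.23 to -1.02 otherwise, with adjusted p of 0.168 to 0.482. Its groups did not overlap under any of the 16, but only the 3 other scalings could have made them overlap. The count of genes past an adjusted p of 0.05, which was 0 with all libraries under every other alternative, ran from 0 to 33 on leaving out single libraries (33 with Pdgfra-cre library 25 left out, 3 with Pdgfra-cre library 13 and 2 with floxed library 43). Genes of the 10 past an unadjusted p of 0.05 numbered 1 to 3 when 1 library was left out, 3 of them (Cxcl12, Cxcl13 and Cxcl14) without Pdgfra-cre library 23 and 2 (Ccl19 and Cxcl13) without floxed library 9, against 9.23% and 10.7% of all tested genes in those fits. Genes whose groups did not overlap also numbered 1 to 3, and were the same ones, against 25.2% and 28.5% of all tested genes. With quantile normalization and with rescaling to TPM both counts were 2, and with array weights 2 had an unadjusted p under 0.05, against 11.2%, 11.3% and 11.6% of all tested genes by p in these 3 fits and 16.5% and 17.3% by overlap in the first 2; the gene added was Cxcl12 in each case, and the cause was not tested.

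Signs changed for 4 genes near 0. Il7 was 0.015 with a pseudocount of 5 and ran from -0.48 to 0.26 when 1 library was left out. The corresponding ranges were -0.54 to 0.037 for Cxcl14, -0.51 to 0.054 for Ccl21a and -0.045 to 0.31 for Cxcl16. Under a filter of 5 FPKM Ccl21a could not be tested. No paired analysis was possible because the mouse numbers of the 2 groups do not match. With 3 mice per group, and a depth known only roughly, differences in Ccl21a, Madcam1 and Bst1 were limited by a few fragments per library.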

Other observations

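The library with the least Ccl19 also had low values of some other stromal genes and high values of others, picked out after their values were seen. In floxed library 43, Il33, an alarmin of reticular and other fibroblasts, was at 99.4 FPKM, against 217.6 to 394.7 FPKM in the other 5 libraries. Clu was at 20.2 FPKM there, against 27.1 to 57.7 FPKM. Il15 went the other way, with 13.8 FPKM in that library and 3.73 to 10.4 FPKM in the others. So did Tslp (14.4 FPKM, against 5.88 to 9.19 FPKM) and Lepr (111.8 FPKM, against 57.5 to 87.7 FPKM). Tnfsf13b was also highest there, at 110.6 FPKM, against 69.0 to 106.7 FPKM.

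Chst4, a sulfotransferase of high endothelial venules, had 2.75, 4.89 and 0.954 FPKM in Pdgfra-cre libraries 13, 23 and 25, against 0.815, 0 and 0 FPKM in floxed libraries 8, 9 and 43. It was below the filter, and Glycam1, Selp and Fut7 of the same list were at most 0.450 FPKM.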
